A study of Mus musculus with 5 samples.

Results

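The genes described here encode the ligands, receptors, SMAD proteins, antagonists and regulators of the TGF-beta and BMP pathway, with the Id genes as targets. They were taken from a list of 47 gene symbols, and each of the 47 was found once among the 17657 genes of the deposited table. By role they comprised 13 genes for ligands (with the protease gene Bmp1 among them), 11 for receptors and co-receptors, 8 for SMADs, 5 for intracellular regulators, 6 for antagonists and 4 for Id targets. The values come from RNA-seq of epidermal stem cells, which give rise to the keratinocytes of skin, grown in KGM2 medium after isolation from the skin of mice. Cells of Angptl4 knockout mice (KO, 2 libraries) were set against cells of wild-type mice (WT, 3 libraries), and all donors were labelled male, C57BL/6 and 8 weeks. Angptl4 encodes a secreted inhibitor of lipoprotein lipase, and the part of the gene removed, the reach of the deletion across tissues and the number of mice behind each library were not stated in the labels. P-values therefore reflect how much these libraries differ among themselves, and that spread may be technical.

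Ligands of this family are secreted dimers that bring together type II and type I receptor kinases. TGF-beta and activin signals pass mainly through SMAD2 and SMAD3, BMP signals through SMAD1, SMAD5 and SMAD9, and both use the shared partner SMAD4, while SMAD6 and SMAD7 act as inhibitory feedback. In the epidermis TGF-beta restrains keratinocyte growth, activin is known from wound repair, and BMP signals and their antagonists set the rest and activation of hair follicle stem cells. Secreted antagonists trap ligands before they reach a receptor: follistatin (Fst) and FSTL3 bind activins, and noggin binds BMPs.

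The libraries held 20507641 and 20283084 expected counts in KO1 and KO2 and 20686246 to 20773407 in the WT libraries, so 1 CPM (counts scaled to a common library size) stood for 20.3 to 20.8 counts. Angptl4 itself was at 0.83 and 1.06 CPM in KO1 and KO2, against 6.97, 5.76 and 4.13 CPM in WT1, WT2 and WT3, a log2 change of -2.56 ± 0.32 (SE, adjusted p = 0.00458, lost only where each group had its own spread, at 0.127). The 17 and 22 counts left in KO1 and KO2 could not be placed within the gene. The biological coefficient of variation was 28.9% between the KO libraries and 5.21% among the WT libraries. The keratinocyte marker list was present in every library, with 47466 and 37455 summed TPM (also scaled by transcript length) in KO1 and KO2 and 36879 to 38008 in the WT libraries. Krt5 and Krt14 made up most of these sums. Of 12 tested keratinocyte markers 3 were higher in KO (Krt15, Itgb4 and Cdh1) and 2 lower (Trp63 and Itga6). These shares, 25% and 16.7%, stood beside 20.4% of all tested genes in each direction. The log2 changes were -0.73 for Trp63 (adjusted p = 0.00518) and -0.91 for Itga6 (adjusted p = 0.00413). Krt15 had 55 and 30 counts in KO1 and KO2, against 2, 3 and 10 in the WT libraries. It reached the count filter in both KO libraries but in only 1 WT library. Of 13 tested fibroblast markers 7 were higher in KO (53.8%, beside 20.4% of all tested genes) and 0 lower. The list had 124 and 57.9 summed TPM in KO1 and KO2, against 41.2 to 45.9 in the WT libraries. Fbln1, which did not pass (adjusted p = 0.164), made up most of these sums. It was at 71.1 and 38.8 TPM in KO1 and KO2, against 39.2 to 39.8 TPM in the WT libraries. Of 5 tested pericyte and smooth muscle markers 4 were higher in KO (80%, beside 20.4% of all tested genes) and 0 lower. The list had 1851 and 698 summed TPM in KO1 and KO2, against 285 to 332 in the WT libraries. Acta2 alone made up 1606 and 537 TPM of these sums in KO1 and KO2, against 218.8 to 251.4 TPM in the WT libraries. Cspg4 passed the filter through KO alone, and Cnn1 reached it in both KO libraries but in only 1 WT library. Rgs5 and Des had 3 or fewer counts in every library. Of the 7 fibroblast markers, Col6a1, Col6a2, Pdgfrb, Dcn and Postn passed the count filter through the KO libraries alone and could only rise, while Col1a1 and Thy1 passed it in WT too. Postn, for example, had 351 and 145 counts in KO1 and KO2, against 1, 4 and 1 in the WT libraries, and Thy1 had 307 and 120, against 38, 40 and 21. Among the 6 tested ones that did not pass, Pdgfra had 50 and 41 counts, against 35, 33 and 20. Twist1 was the only one with a log2 change below 0 (-1.07), at 7 and 3 counts, against 13, 17 and 2. Lum was too low to be tested at all. In bulk RNA, more cells of a type and more RNA per cell cannot be told apart.

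Of the 47 genes, 44 passed the filter on low counts, and Smad6, Smad9 and Grem1 did not. In KO cells 10 rose, 8 fell and 26 did not pass the threshold of adjusted p under 0.05 (edgeR's quasi-likelihood test, Benjamini-Hochberg adjustment over all genes). Over all 12957 tested genes 20.4% were higher and 20.4% lower in KO, 40.8% in all, and the shares among the pathway genes were close to this background, at 22.7% higher and 18.2% lower. The median log2 change of the pathway genes was 0.10, beside 0.02 over all tested genes. For 28 of the 44 (63.6%) the values of the 2 groups did not overlap, against 66.4% of all tested genes. As a whole, then, the pathway genes changed about as often as other genes, and what the data show lies in which members moved. Of the 18 changed genes 7 rose and 2 fell by at least 2-fold, which is 15.9% and 4.55% of those tested, beside 8.83% and 5.12% of all tested genes. Fstl1 and Id4, among the 7, passed the count filter through the KO libraries alone and could only rise.

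With WT1, WT2 or WT3 left out, 3, 4 and 4 genes were higher (6.98, 9.09 and 9.09%) and 2, 2 and 3 lower (4.65, 4.55 and 6.82%), beside 7.62, 8.81 and 8.68% higher and 7.60, 8.94 and 8.77% lower over all tested genes. With KO1 or KO2 left out, a single KO library remained. The median log2 change of the pathway genes was then -0.069 and 0.07, beside 0.003 and -0.003 over all tested genes. Inhbb, Fst, Fstl3 and Smurf1 were past the threshold with each of the 5 libraries left out in turn, and so was Fstl1, which passed the count filter through the KO libraries alone and could only rise. With a separate spread for each group 6 pathway genes were higher (13.6%) and 2 lower (4.55%), beside 12.5 and 12.1% of all tested genes.

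The promoters of Inhbb, Acvr1b and Fstl3 are shown because these genes act on activin signalling and rose together in KO. They span 250 bases before to 50 after the RefSeq start on GRCm38.p6, at chr1:119422199-119422498 (minus strand), chr15:101173822-101174121 (plus strand) and chr10:79777024-79777323 (plus strand). Capitals mark a match on either strand to GGCGCC, a GC-rich element that BMP SMADs bind, to CAGACA or to GTCTAGAC, both bound by SMAD3 and SMAD4.
Inhbb: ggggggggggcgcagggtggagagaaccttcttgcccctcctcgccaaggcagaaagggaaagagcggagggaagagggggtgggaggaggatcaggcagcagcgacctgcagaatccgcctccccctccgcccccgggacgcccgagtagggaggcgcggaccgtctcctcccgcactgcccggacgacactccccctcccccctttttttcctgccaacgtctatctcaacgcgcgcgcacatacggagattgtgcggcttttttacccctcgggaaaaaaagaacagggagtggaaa
Acvr1b: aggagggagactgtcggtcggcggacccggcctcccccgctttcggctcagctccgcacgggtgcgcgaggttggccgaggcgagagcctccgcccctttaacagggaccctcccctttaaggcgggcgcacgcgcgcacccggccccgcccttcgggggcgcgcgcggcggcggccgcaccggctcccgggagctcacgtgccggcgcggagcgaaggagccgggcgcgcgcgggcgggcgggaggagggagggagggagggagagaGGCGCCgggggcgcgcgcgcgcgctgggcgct
Fstl3: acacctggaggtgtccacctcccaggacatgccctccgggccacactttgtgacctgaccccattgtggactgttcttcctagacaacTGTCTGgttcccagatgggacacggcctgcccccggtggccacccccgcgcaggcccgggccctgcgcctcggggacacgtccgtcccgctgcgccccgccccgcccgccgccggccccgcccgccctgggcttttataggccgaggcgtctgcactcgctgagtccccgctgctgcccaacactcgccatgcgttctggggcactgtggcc
The Acvr1b window held 1 GGCGCC, the Fstl3 window 1 CAGACA on the reverse strand, and the Inhbb window none of the 3 motifs. Of the 47 genes 33 had at least 1 promoter in the RefSeq table, 39 promoters in all. Of these, 36 belonged to tested genes, and GGCGCC was in 10 of the 36 (27.8%), beside 20.4% of 13236 promoters of all tested genes. CAGACA was in 6 of the 36 (16.7%), beside 16.1%, and GTCTAGAC in 0 of the 36, beside 0.249%. No matches overlapped in these 3 windows, and the counts describe the letters only.

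The clearest contrast was within the activin system. Follistatin, the secreted activin trap, fell 8.14-fold in KO cells, while the activin subunit gene Inhbb, the activin type I receptor gene Acvr1b and the second follistatin-type antagonist gene Fstl3 rose 2.65-, 1.66- and 1.64-fold. Fst (GRCm38.p6 chromosome 13, 114452262 to 114462047 in the deposited table) was at 125 and 61.4 CPM in KO1 and KO2, against 772, 766 and 733 CPM in WT1, WT2 and WT3. Both KO libraries lay far below every WT library, and KO2 was the lower of the KO pair. Its log2 change was -3.02 ± 0.33 (SE, adjusted p = 0.0036), past the threshold in 16 of 16 alternatives. Inhbb, which encodes the beta-B subunit (chromosome 1, 119415463 to 119422248), was at 39.9 and 26.8 CPM in KO1 and KO2, against 13.6, 12.9 and 11.2 CPM in the WT libraries. The groups did not overlap, with a log2 change of 1.41 ± 0.19 (adjusted p = 0.00566) and the threshold passed in 16 of 16 alternatives.

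Inhba, which encodes the beta-A subunit of activin A, was at 259 and 183 CPM in KO1 and KO2, against 156, 159 and 161 CPM in the WT libraries. Both KO libraries were above the WT range, but KO2 only slightly, and the log2 change of 0.48 ± 0.15 just missed the threshold (adjusted p = 0.0543). Fstl3 (chromosome 10, 79777274 to 79782630) was at 120 and 98.1 CPM in KO1 and KO2, against 66.2, 68.5 and 64.7 CPM in the WT libraries. Again the groups did not overlap, and the log2 change was 0.71 ± 0.10 (adjusted p = 0.00602). Acvr1b, the type I receptor also called ALK4 (chromosome 15, 101174072 to 101213684), was at 77.8 and 64.0 CPM in KO1 and KO2, against 41.6, 47.3 and 39.5 CPM in the WT libraries. Its log2 change of 0.73 ± 0.12 passed (adjusted p = 0.00923), though not without WT1 (adjusted p = 0.0538, 6.21e-05 to 0.0656 over its alternatives). Fst, Inhba and Fstl3 each overlap another annotated gene (Gm41074, B230303A05Rik and Prss57), and reads of the shared stretches could belong to either.

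**Figure D1:**
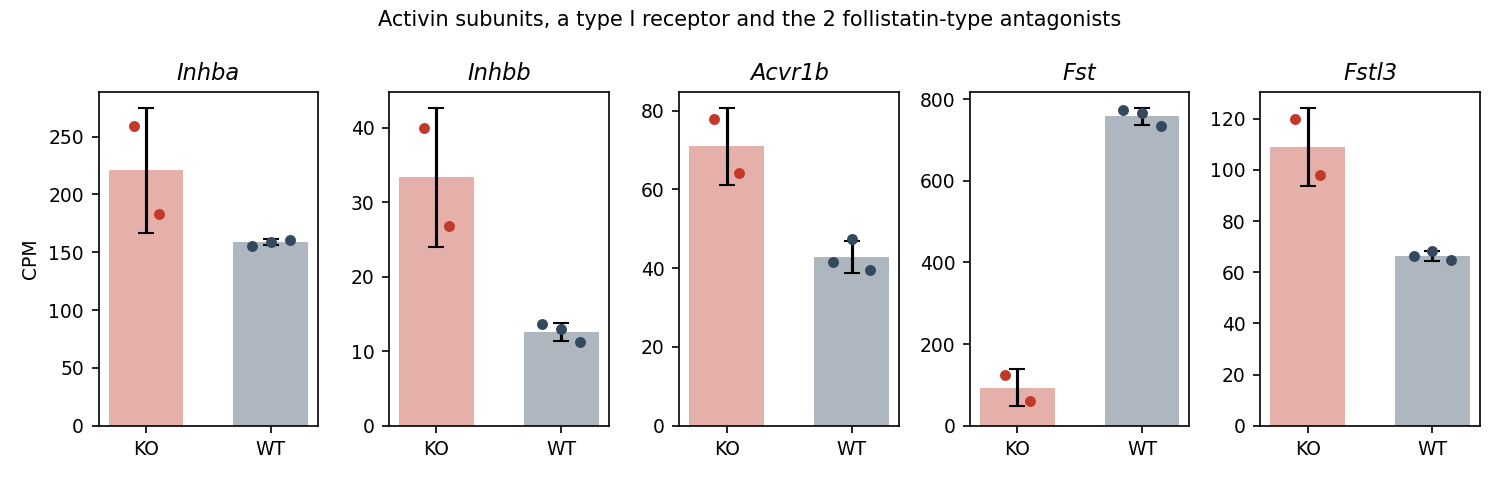
CPM (linear axes from 0) of 5 activin system genes in KO (2 libraries, left) and WT (3 libraries, right); bars are means, error bars SD, and points single libraries. Fst is at 61.4 and 125 CPM in KO and at 733 to 772 CPM in WT, while the other 4 genes have both KO libraries above every WT library.

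On the per-length scale the balance of these transcripts changed. Fst was the most abundant of the 47 genes in WT cells, at 571 ± 17.3 TPM (SD, n = 3), against 69.4 ± 32.8 TPM (SD, n = 2) in KO cells. The ratio of Fst to Inhba TPM, chosen after the values were seen and given with no test, was 1.18 and 0.83 in KO1 and KO2, against 12.2, 11.8 and 11.2 in the WT libraries. With Fstl3 added to Fst and Inhbb to Inhba, the ratio of antagonist to subunit TPM was 2.21 and 2.15 in KO1 and KO2, against 12, 11.8 and 11.3 in the WT libraries. In KO cells Fstl3 stood above Fst, at 110 ± 15.2 TPM (SD, n = 2), whereas in WT cells it stood far below it, at 68.2 ± 2.11 TPM (SD, n = 3). The alpha subunit gene Inha, which turns activin subunits into inhibin, was at 9.20 and 8.41 CPM in KO1 and KO2, against 1.66, 3.73 and 2.67 CPM in the WT libraries, a log2 rise of 1.71 ± 0.33 (adjusted p = 0.0135). This call did not hold without WT3 (adjusted p = 0.0635, 6.73e-05 to 0.0635 over its alternatives).

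Among the 13 ligand genes 4 rose (30.8%), 1 fell (7.69%) and 8 did not pass, beside 20.4% of all tested genes in each direction. Without WT1, WT2 or WT3 only 1, 1 and 1 rose (7.69% each) and 0 fell. These shares were near the 7.62, 8.81 and 8.68% of all genes that rose. The median log2 change was 0.67, beside 0.02 over all tested genes, and 0.57 and 0.72 without KO1 and without KO2. The TGF-beta isoforms behaved unlike one another. Tgfb1, the main TGF-beta of the epidermis, was at 90.5 and 104 CPM in KO1 and KO2, against 119, 116 and 106 CPM in the WT libraries, and its log2 change of -0.22 ± 0.10 did not pass (adjusted p = 0.12). Tgfb2 was at 10.5 and 4.64 CPM in KO1 and KO2, against 1.90, 2.03 and 2.33 CPM in the WT libraries. Tgfb3 was at 4.89 and 1.98 CPM in KO1 and KO2, against 1.12, 1.16 and 0.87 CPM in the WT libraries. For both of these isoforms KO1 was more than double KO2, and KO2 was still above every WT library. The log2 rises were 1.86 ± 0.37 (adjusted p = 0.0151) for Tgfb2 and 1.70 ± 0.43 (adjusted p = 0.0293) for Tgfb3. Neither held when WT1, WT2 or WT3 was dropped (adjusted p = 0.0715, 0.0663 and 0.0601 for Tgfb2, 3.05e-05 to 0.0715 over its alternatives, and 0.0972, 0.0897 and 0.105 for Tgfb3, 0.000221 to 0.109 over its alternatives), and without KO1 the rises were 1.14 and 0.90.

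Despite these rises Tgfb1 made up most of the TGF-beta transcripts in every library. Its share of the summed TPM of the 3 isoforms was 92.3 and 97.1% in KO1 and KO2, against 98.8, 98.7 and 98.6% in the WT libraries. The sum itself was 88.6 and 97.4 TPM in KO1 and KO2, against 98.5 to 111 TPM in the WT libraries, so the gain in Tgfb2 and Tgfb3 did not lift the total. The fibroblast markers given above were also higher in KO1 than in KO2, as were Tgfb2, Tgfb3 and Bmp2, and the part of other cell types in these rises was not tested.

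The BMP ligand genes followed no single direction. Bmp2 was at 5.78 and 2.03 CPM in KO1 and KO2, against 1.51, 1.02 and 1.26 CPM in the WT libraries, a log2 rise of 1.62 ± 0.48 (adjusted p = 0.0453) carried mainly by KO1. Without KO1 the rise was 0.67 (adjusted p = 0.11), and it did not hold when WT1, WT2 or WT3 was dropped either (adjusted p = 0.11, 0.14 and 0.132, 0.00021 to 0.14 over its alternatives). Bmp4 was the only ligand gene that fell, at 0.78 and 1.35 CPM in KO1 and KO2, against 2.97, 3.0 and 3.40 CPM in the WT libraries. Its log2 change was -1.54 ± 0.30 (adjusted p = 0.0139), and the call was lost when WT1, WT2 or WT3 was dropped (adjusted p = 0.0584, 0.0562 and 0.0602, 0.000376 to 0.0881 over its alternatives). Bmp2 and Bmp4 encode close relatives that bind the same receptors, and their transcripts moved in opposite directions. Bmp7, of the BMP5 to BMP8 branch, was at 22.8 and 38.1 CPM in KO1 and KO2, against 25.1, 26.5 and 25.0 CPM in the WT libraries, with overlapping groups (adjusted p = 0.389).

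Several ligand genes differed more between the KO libraries than between the groups. Bmp6 was at 0.24 and 8.51 CPM in KO1 and KO2, on either side of the 2.63, 3.19 and 2.33 CPM of the WT libraries. Gdf15, a stress-induced distant member of the family, was at 0.69 and 6.23 CPM in KO1 and KO2, against 0.88, 0.73 and 1.21 CPM in the WT libraries. Gdf11 was at 6.80 and 2.17 CPM in KO1 and KO2, against 3.75, 3.53 and 4.32 CPM. In each case 1 KO library lay below the WT range and the other above it, and none of the 3 passed (adjusted p = 0.636, 0.135 and 0.74). With single KO libraries set against WT, Bmp6 changed by 1.63 without KO1 (adjusted p = 0.000285) and by -3.43 without KO2 (adjusted p = 0.000484, 0.000285 to 0.99 over its alternatives), so its direction was set by which library was used. Bmp6 overlaps Txndc5, and reads of the shared stretch could belong to either.

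Bmp1, which encodes a protease that matures procollagens rather than a ligand of the family, was at 266 and 135 CPM in KO1 and KO2, against 131, 124 and 123 CPM in the WT libraries (adjusted p = 0.102). KO1 stood clear of the WT range and KO2 at its edge. Bmp8a, whose reads can be shared with its near copy Bmp8b, was at 1.22 and 2.08 CPM in KO1 and KO2, against 1.66, 2.32 and 2.43 CPM in the WT libraries (adjusted p = 0.41).

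**Figure D2:**
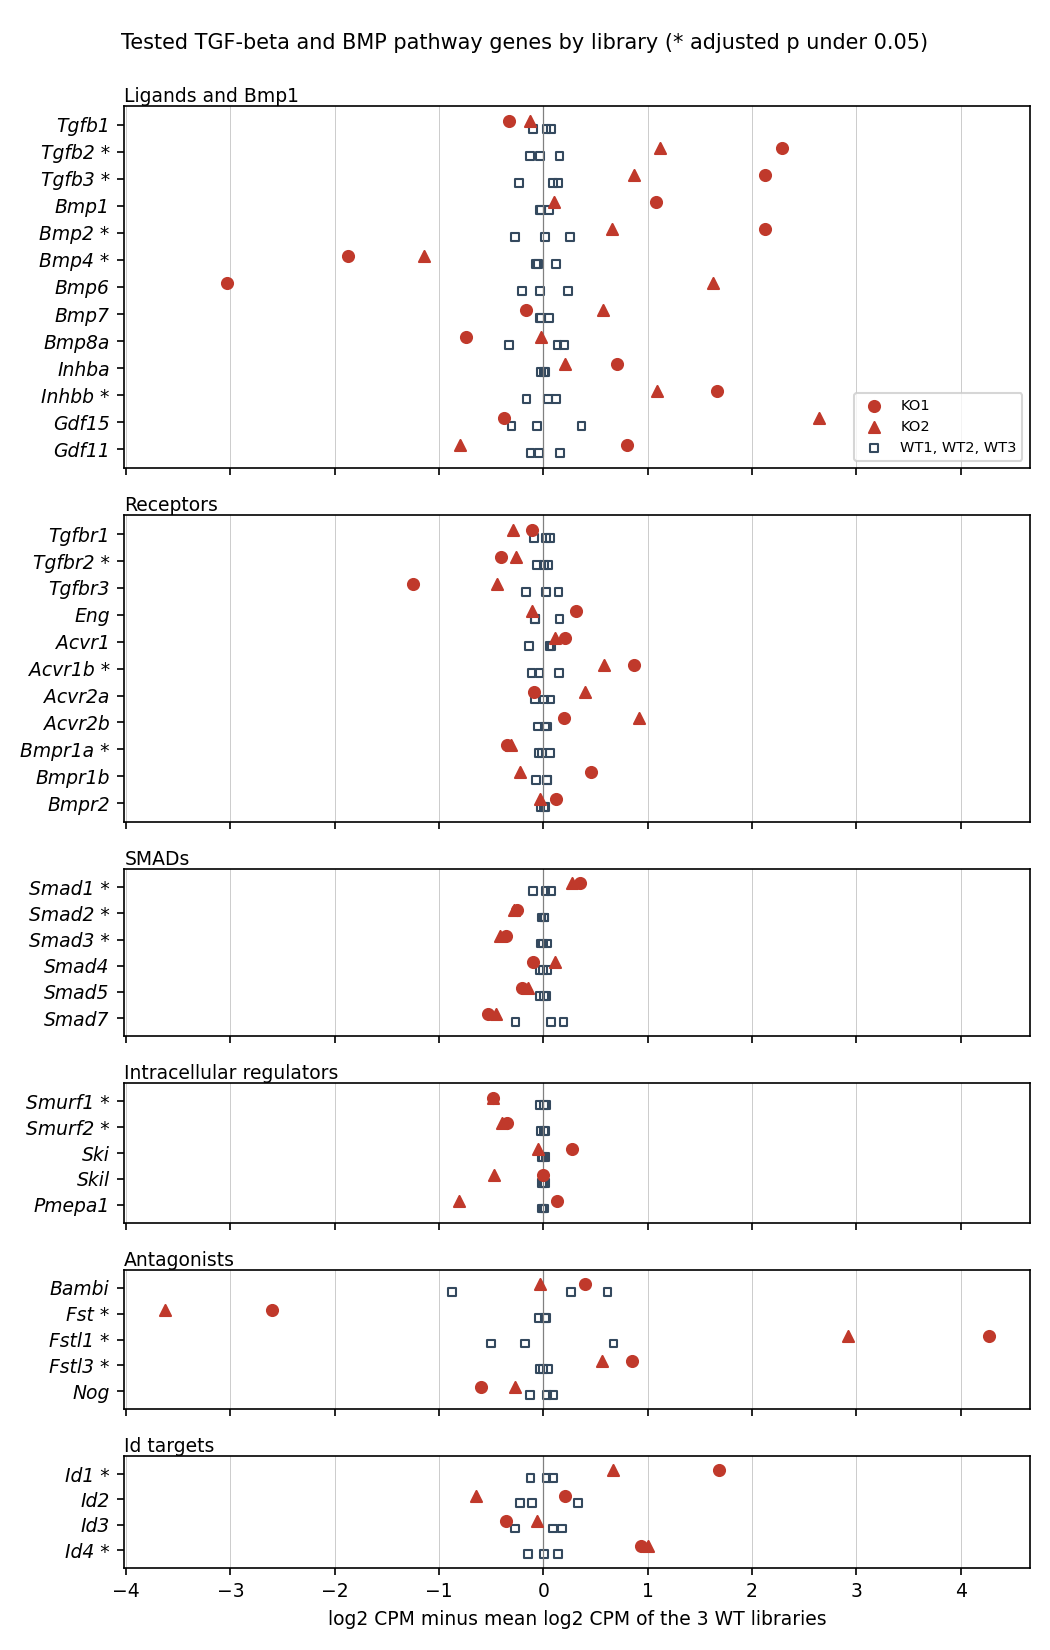
Difference of log2 CPM (prior count 2) from the mean of the 3 WT libraries for the 44 tested genes, by role; red circles are KO1, red triangles KO2, open squares the WT libraries, and * marks adjusted p under 0.05. Smad2, Smad3, Smurf1 and Smurf2 have both KO libraries close together, while Bmp6, Gdf15 and Gdf11 have KO1 and KO2 on opposite sides of 0.

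The receptor genes changed little. Of 11, 1 rose (Acvr1b, above), 2 fell and 8 did not pass, and none changed by 2-fold or more. The shares were 9.09% higher and 18.2% lower, beside 20.4% of all tested genes in each direction. Tgfbr2, the type II receptor that binds TGF-beta first, was by far the most abundant receptor transcript, at 157 ± 11.4 TPM (SD, n = 2) in KO and 201 ± 7.95 TPM (SD, n = 3) in WT. In CPM it was at 364 and 402 in KO1 and KO2, against 483, 498 and 462 in the WT libraries, a log2 change of -0.33 ± 0.09 (adjusted p = 0.0358). Bmpr1a, the main BMP type I receptor of skin epithelium, was at 93.5 and 96.3 CPM in KO1 and KO2, against 118, 116 and 125 CPM in the WT libraries, a log2 change of -0.33 ± 0.07 (adjusted p = 0.0171). For both genes the groups did not overlap and the KO libraries lay close together, but the calls were lost when WT1, WT2 or WT3 was dropped (adjusted p = 0.141, 0.144 and 0.105 for Tgfbr2, 0.00108 to 0.229 over its alternatives, and 0.079, 0.0644 and 0.0783 for Bmpr1a, 0.000901 to 0.193 over its alternatives). Without any 1 WT library no receptor gene fell, and 0, 1 and 1 rose without WT1, WT2 and WT3.

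The partner receptors showed smaller or less even differences. Tgfbr1, the TGF-beta type I receptor, was at 21.2 and 18.7 CPM in KO1 and KO2, against 23.9, 23.4 and 21.5 CPM in the WT libraries (log2 change -0.20, adjusted p = 0.174). Tgfbr3, the co-receptor betaglycan, which presents TGF-beta2 and binds inhibin, was at 6.46 and 11.4 CPM in KO1 and KO2, against 13.8, 17.2 and 15.8 CPM in the WT libraries, and just missed the threshold (log2 change -0.81 ± 0.26, adjusted p = 0.0561). Acvr2b, a type II receptor for activins, was at 8.22 and 13.6 CPM in KO1 and KO2, against 6.92, 7.26 and 7.33 CPM (adjusted p = 0.0856). The other tested receptors, Acvr1, Acvr2a, Bmpr1b, Bmpr2 and the endothelial co-receptor Eng, had log2 changes between 0.05 and 0.17, none past the threshold. Bmpr2, the BMP type II receptor, was the flattest of the receptors, at 81.0 and 72.8 CPM in KO1 and KO2, against 73.1, 75.6 and 74.7 CPM in the WT libraries.

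Among the SMAD genes the changes were small, and apart from Smad4 both KO libraries of each tested gene lay on the same side of the WT mean. Of 6 tested 1 rose (16.7%), 2 fell (33.3%) and 3 did not pass, beside 20.4% of all tested genes in each direction. Without WT1, WT2 and WT3, 0 SMAD genes rose, and 0, 0 and 1 (Smad7) fell. Over all tested genes 7.6, 8.94 and 8.77% fell there. Both SMADs of the TGF-beta and activin branch fell. Smad3 was at 43.8 and 42.1 CPM in KO1 and KO2, against 57.3, 55.8 and 55.0 CPM in the WT libraries (log2 change -0.38 ± 0.07, adjusted p = 0.0103). Smad2 was at 73.6 and 72.2 CPM in KO1 and KO2, against 86.7, 88.2 and 88.4 CPM in the WT libraries (log2 change -0.27 ± 0.06, adjusted p = 0.0217). Smad1, of the BMP branch, was the SMAD gene that rose, at 40.6 and 38.3 CPM in KO1 and KO2, against 29.7, 33.5 and 32.2 CPM in the WT libraries (log2 change 0.31 ± 0.09, adjusted p = 0.0386). These 3 calls were lost when WT1, WT2 or WT3 was dropped (adjusted p = 0.0669, 0.0586 and 0.0534 for Smad3, 0.094, 0.0961 and 0.0945 for Smad2, and 0.143, 0.0915 and 0.12 for Smad1; 0.000528 to 0.115, 0.00281 to 0.228 and 0.00838 to 0.221 over their alternatives). Per transcript length Smad1 ranked first of the SMAD genes in KO at 25.7 ± 0.99 TPM (SD, n = 2) and behind Smad3, Smad4 and Smad5 in WT at 21.0 ± 1.33 TPM (SD, n = 3), where Smad1, Smad2, Smad3, Smad4 and Smad5 lay between 19.6 and 21.7 TPM.

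Smad5, the other abundant BMP SMAD, was at 49.1 and 51.1 CPM in KO1 and KO2, against 55.3, 57.8 and 56.7 CPM in the WT libraries (log2 change -0.18, adjusted p = 0.0852), so it did not share the direction of Smad1. On the TPM scale the gap of Smad5 was wider, at 15.1 and 15.2 in KO1 and KO2, against 21.3, 21.5 and 20.7 in the WT libraries. Smad4, the common partner, differed by 0.01 on the log2 scale (adjusted p = 0.954), with KO1 and KO2 at 75.4 and 87.1 CPM on either side of the WT range of 79.0 to 83.1 CPM. The inhibitory Smad7, induced by the pathway itself, was at 12.3 and 13 CPM in KO1 and KO2, against 20.3, 18.7 and 14.8 CPM in the WT libraries, and just missed the threshold (log2 change -0.51 ± 0.16, adjusted p = 0.0538). Smad6 had 8 and 4 counts in KO1 and KO2, against 3, 6 and 6 in the WT libraries, and Smad9 had 2 and 3, against 2, 1 and 4, too few for either to be tested.

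Both ubiquitin ligase genes that mark SMADs and receptors for breakdown fell. Smurf1 was at 182 and 182 CPM in KO1 and KO2, against 260, 248 and 256 CPM in the WT libraries. The KO libraries were nearly identical and clearly below WT, with a log2 change of -0.48 ± 0.07 (adjusted p = 0.00648). Smurf2 was at 49.7 and 48.2 CPM in KO1 and KO2, against 64.4, 63.9 and 62.3 CPM in the WT libraries, a log2 change of -0.38 ± 0.06 (adjusted p = 0.00931). Its call was lost when WT1, WT2 or WT3 was dropped (adjusted p = 0.0628, 0.0574 and 0.0503, 0.000348 to 0.112 over its alternatives). The remaining regulators did not pass, and their KO libraries disagreed. Pmepa1, a TGF-beta-induced feedback inhibitor, was at 375 and 196 CPM in KO1 and KO2, above and below the 345, 340 and 342 CPM of the WT libraries (adjusted p = 0.468). The SMAD corepressor gene Skil, also induced by TGF-beta, was at 48.4 and 34.8 CPM in KO1 and KO2, against 48.0, 48.2 and 49.1 CPM in the WT libraries (adjusted p = 0.276). Its relative Ski was at 181 and 144 CPM in KO1 and KO2, against 149, 148 and 151 CPM in the WT libraries (adjusted p = 0.41).

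Of the 6 antagonist genes 5 were tested, and beside Fst and Fstl3 Fstl1 also changed. Fstl1, a secreted protein with a follistatin domain that is made mainly by mesenchymal cells, was at 5.19 and 1.98 CPM in KO1 and KO2 (106 and 41 counts), against 3, 2 and 7 counts in the WT libraries. Its log2 change was 4.16 ± 0.64 (adjusted p = 0.00725). Since it passed the count filter through the KO libraries alone, a rise was the only direction it could show. The same holds for Id4. The BMP antagonist genes noggin and gremlin did not pass or were not tested. Nog was at 4.16 and 5.22 CPM in KO1 and KO2, against 6.77, 6.48 and 5.78 CPM in the WT libraries (log2 change -0.44, adjusted p = 0.104). Grem1 had 8 and 5 counts in KO1 and KO2, against 2, 3 and 0 in the WT libraries, and the pseudoreceptor gene Bambi had 10 and 7, against 12, 3 and 9.

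The Id genes encode inhibitors of basic helix-loop-helix factors and are direct targets of BMP SMADs. Of 4, 2 rose (50%, beside 20.4% of all tested genes) and 2 did not pass. When WT1, WT2 or WT3 was dropped 0 rose, beside 7.62, 8.81 and 8.68% of all genes. Id1 was at 3.13 and 1.5 CPM in KO1 and KO2, against 0.93, 0.82 and 0.97 CPM in the WT libraries (log2 change 1.35 ± 0.38, adjusted p = 0.0378). Id4 had 17 and 18 counts in KO1 and KO2, against 8, 9 and 7 in the WT libraries (log2 change 1.12 ± 0.30, adjusted p = 0.0331). The most abundant Id gene on the TPM scale did not pass. Id3 was at 8.27 and 10.2 CPM in KO1 and KO2, against 8.82, 11.4 and 12.1 CPM in the WT libraries (log2 change -0.22, adjusted p = 0.393). Id2 was at 1.47 and 0.77 CPM in KO1 and KO2, against 1.61, 1.06 and 1.16 CPM in the WT libraries, with overlapping groups (adjusted p = 0.716). The call of Id1 was lost without WT1, WT2, WT3 or KO1 (adjusted p = 0.116, 0.122, 0.106 and 0.11, 0.000997 to 0.122 over its alternatives), and that of Id4 with any library left out (adjusted p = 0.068 to 0.105, 0.0158 to 0.231 over its alternatives). Summed over the 4 genes, Id transcripts were at 26.8 and 26.7 TPM in KO1 and KO2, within the WT range of 23.8 to 30.3 TPM.

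**Figure D3:**
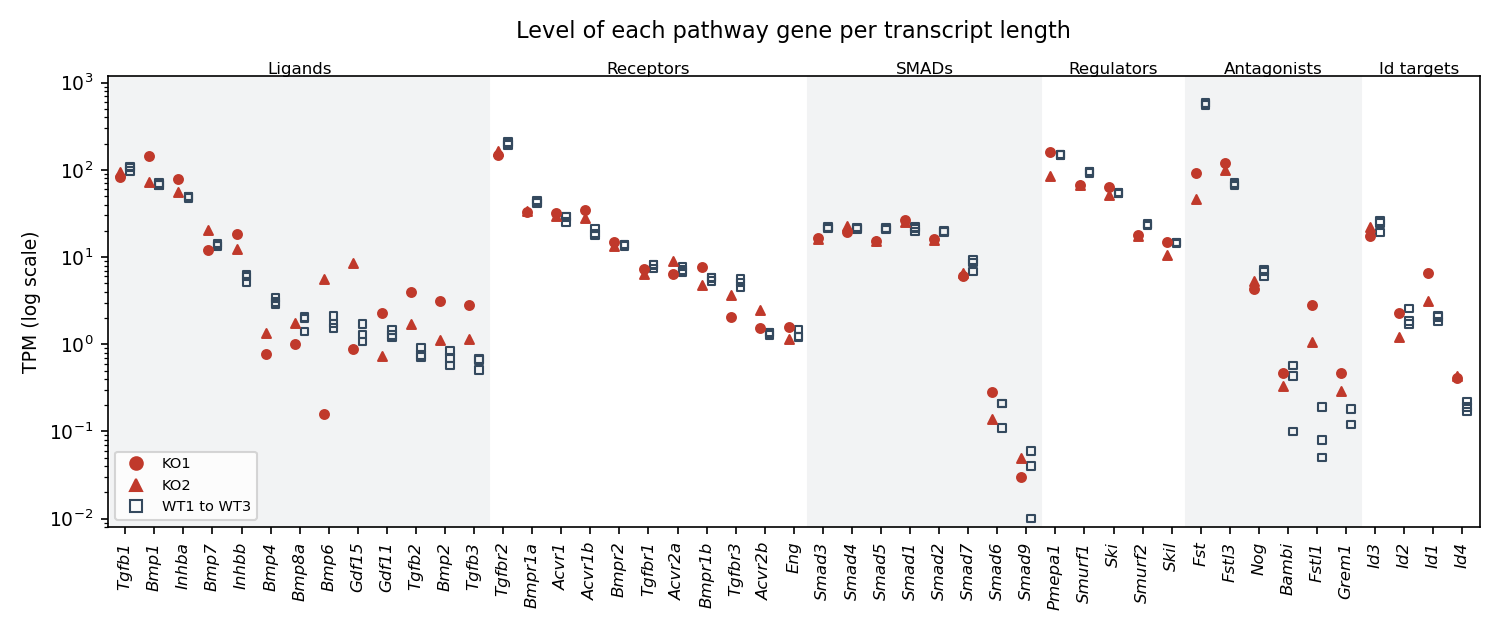
TPM (per transcript length, log axis) of all 47 genes in each library, ordered within each role by the WT mean; red circles and triangles are KO1 and KO2, open squares the WT libraries, and the value of 0 for Grem1 in WT3 is not drawn. Fst stands highest in WT and falls below Fstl3 in KO, while Smad1, Smad2, Smad3, Smad4 and Smad5 lie within one narrow band.

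The genes that store and release latent TGF-beta were examined next, since TGF-beta is secreted bound to its propeptide and held in the matrix until freed. This list and the related lists below were chosen with earlier results of these data known, so their shares are descriptive. Of 17 tested genes of this list (21 listed) 8 rose (47.1%, beside 20.4% of all tested genes), 0 fell and 9 did not pass. The median log2 change was 0.65, beside 0.02 for all tested genes. Fbn1, among the 8, passed the count filter through the KO libraries alone and could only rise. Without WT1, WT2 and WT3, 5, 5 and 6 rose (29.4, 29.4 and 35.3% of those tested), beside the 7.62, 8.81 and 8.68% of all genes given above. Itgb5, which pairs with the alpha-v integrin, was at 107 and 88.6 CPM in KO1 and KO2, against 40.1, 39.4 and 43.0 CPM in the WT libraries (log2 change 1.26 ± 0.10, adjusted p = 0.00218). The latent TGF-beta binding protein gene Ltbp3 was at 75.5 and 80.7 CPM in KO1 and KO2, against 39.8, 41.5 and 35.4 CPM (log2 change 1.01 ± 0.09, adjusted p = 0.00263). Lrrc32, which encodes GARP, a surface anchor of latent TGF-beta, rose by 1.16 and the matrix protease gene Mmp2 by 2.06 on the log2 scale (adjusted p = 0.00403 and 0.00317). All 4 of these had both KO libraries above every WT library and passed in 16 of 16 alternatives. Itgb6, the epithelial partner of alpha-v that frees TGF-beta, named here after its values were seen, was lower without passing, at 173 and 55.4 CPM in KO1 and KO2, against 265, 268 and 279 CPM in the WT libraries (adjusted p = 0.0819).

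Target genes of TGF-beta, a list of 26 of which 24 were tested, included 10 that rose, 1 that fell and 13 that did not pass, with a median log2 change of 0.79. The 10 (41.7%, beside 20.4% of all tested genes) became 2, 2 and 3 without WT1, WT2 and WT3 (8.33, 8.33 and 12.5%), near the 7.62, 8.81 and 8.68% of all genes. The list medians of the single KO libraries against WT were 1.20 in KO1 and 0.47 in KO2. Cdkn2b, a cell cycle inhibitor that TGF-beta induces in keratinocytes, rose by 2.71 ± 0.28 on the log2 scale (adjusted p = 0.00336). Ccn2, also called CTGF, was at 271 and 85.6 CPM in KO1 and KO2, against 25.6, 20.3 and 26.6 CPM in the WT libraries (log2 change 2.88 ± 0.48, adjusted p = 0.00876). Tgfbi, a secreted matrix protein named for its induction by TGF-beta, was at 531 and 131 CPM in KO1 and KO2, against 38.2, 36.7 and 30.7 CPM (log2 change 3.23 ± 0.57, adjusted p = 0.0102). The basement membrane collagen gene Col4a1 rose by 1.64 ± 0.30 (adjusted p = 0.0122). For Ccn2 and Tgfbi the value in KO1 was over 3 times that in KO2. The calls of Tgfbi (adjusted p = 0.0543, 0.0521 and 0.0556, 1.1e-08 to 0.0556 over its alternatives) and Col4a1 (adjusted p = 0.0616 and 0.0585 without WT1 and WT2, 5.51e-06 to 0.0616 over its alternatives) were lost without single WT libraries. Col1a1, Col1a2, Col3a1, Acta2 and Tagln of this list are also fibroblast or smooth muscle markers, whose part was not tested.

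The gene of that list that fell was Ctps, which encodes CTP synthase and is named after its values were seen. It was at 133 and 115 CPM in KO1 and KO2, against 173, 164 and 169 CPM in the WT libraries. The groups did not overlap, with a log2 change of -0.45 ± 0.09 (adjusted p = 0.0145), which was lost with WT1, WT2 or WT3 dropped (adjusted p = 0.0747, 0.0603 and 0.067, 0.000101 to 0.106 over its alternatives). Among the induced feedback genes described above, Smad7, Skil and Pmepa1 did not pass.

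**Figure D4:**
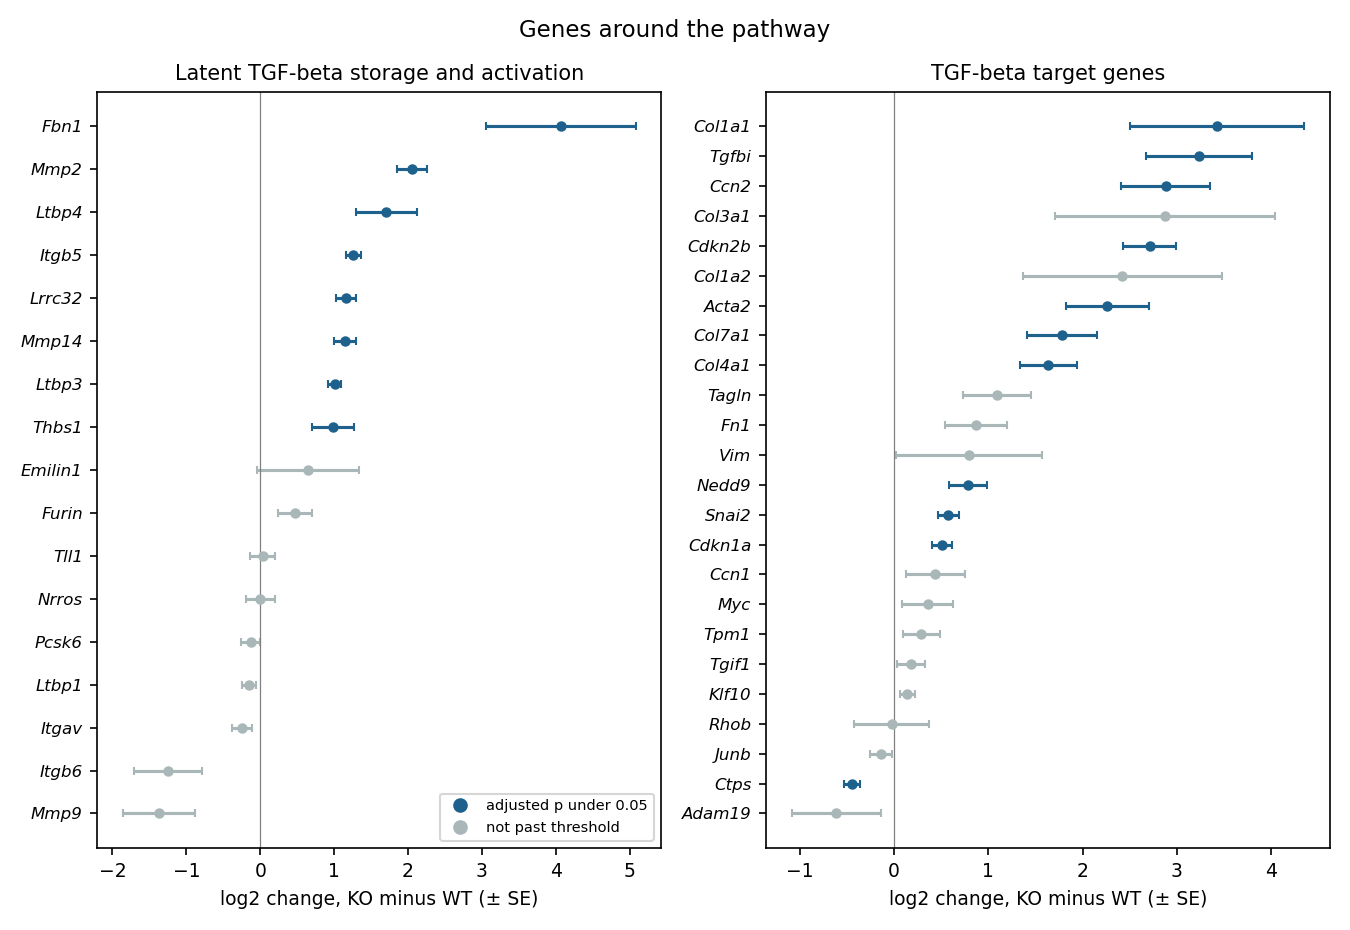
Log2 change (KO minus WT) with its standard error for the tested genes that store or release latent TGF-beta (left) and for TGF-beta target genes (right); blue marks adjusted p under 0.05 and grey genes that did not pass. On the left 8 genes are blue and all lie above 0, and on the right 10 blue genes lie above 0 and 1, Ctps, below it.

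A further list held secreted and surface modulators of BMP and TGF-beta beyond the antagonists above. Of 14 tested (29 listed, 22 in the table) 6 rose (42.9%, beside 20.4% of all tested genes), 0 fell and 8 did not pass. The median log2 change was 0.46, beside 0.02 for all tested genes. Without WT1, WT2 and WT3, 2, 2 and 2 rose (15.4% each), beside 7.62, 8.81 and 8.68% of all genes. Of the 6, Bgn and Dcn passed the count filter through the KO libraries alone and could only rise. The BMP co-receptor gene Rgma was at 56.7 and 46.0 CPM in KO1 and KO2, against 10.5, 11.7 and 9.08 CPM in the WT libraries (log2 change 2.30 ± 0.15, adjusted p = 0.00152), past the threshold in 16 of 16 alternatives. Sostdc1, a secreted BMP and Wnt antagonist of skin and hair follicle, was at 18.3 and 3.62 CPM in KO1 and KO2, against 0.54, 0.53 and 0.53 CPM (log2 change 4.34 ± 0.75, adjusted p = 0.0097), and its call was lost when WT1, WT2 or WT3 was dropped (adjusted p = 0.0536, 0.0504 and 0.0526, 2.65e-08 to 0.0536 over its alternatives). The proteoglycan gene Bgn, also a mesenchymal matrix gene, rose by 5.88 ± 0.61 (adjusted p = 0.00325). The protease gene Htra1 rose by 0.57 ± 0.11 (adjusted p = 0.0143), lost when WT1, WT2 or WT3 was dropped (adjusted p = 0.084, 0.0854 and 0.0851, 3.01e-06 to 0.201 over its alternatives).

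Other regulators of SMADs and receptors, a list of 30 with 28 tested, mostly did not pass: 2 rose, 4 fell and 22 did not, with a median log2 change of -0.12. The shares were 7.14% higher and 14.3% lower, beside 20.4% of all tested genes in each direction. The phosphatase gene Ctdsp2, whose product removes phosphate from SMADs, rose by 1.05 ± 0.13 (adjusted p = 0.00413), at 99.3 and 130 CPM in KO1 and KO2, against 57.7, 54.0 and 54.7 CPM in the WT libraries. The receptor-associated gene Strap and the deubiquitinase gene Usp15 fell by 0.53 and 0.41 on the log2 scale (adjusted p = 0.00647 and 0.00664). Xiap, which also links BMP receptors to TAK1, fell by 0.60 (adjusted p = 0.0101), but not without WT1 or WT3 (adjusted p = 0.0566 and 0.0516, 5.66e-05 to 0.0707 over its alternatives).

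Of 23 further ligands and receptors of the family 17 were in the table and 5 had enough counts to be tested. Of the 5, 2 rose (40%) and 1 fell (20%), beside 20.4% of all tested genes in each direction. Without WT1, WT2 and WT3, 1, 1 and 0 rose (25, 25 and 0%), beside 7.62, 8.81 and 8.68% of all genes. Inha, given above, and Acvrl1, the type I receptor also called ALK1, rose. Acvrl1 was at 25.7 and 16.6 CPM in KO1 and KO2, against 10.1, 11.5 and 12.3 CPM in the WT libraries (log2 change 0.90 ± 0.21, adjusted p = 0.022), lost when WT1, WT2 or WT3 was dropped (adjusted p = 0.089, 0.0796 and 0.0693, 9.96e-05 to 0.089 over its alternatives). Bmp8b had 3 and 1 counts in KO1 and KO2, against 14, 32 and 10 in the WT libraries, and its log2 change of -3.14 ± 0.84 (adjusted p = 0.0331) rests on these few counts and on reads it may share with Bmp8a. It passed the filter through the WT libraries alone, and its call was lost without KO2 or WT3 (adjusted p = 0.0572 and 0.0515, 0.00945 to 0.356 over its alternatives). Amhr2 did not pass (adjusted p = 0.0734).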

How the data were processed

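RNA-seq expression of the 47 genes was read from 1 deposited table with expected counts, TPM and FPKM for 2 KO and 3 WT libraries, grouped by their titles. The deposited expected counts are credited by the submitters' processing notes to RSEM 1.3.1 and the build GRCm38.p6. RSEM divides reads that match several genes by probability, and 32.1 to 34.0% of values per library were not whole. TPM values were computed by the authors, per the file headers, and scale for transcript length within a library. The 5 deposited FPKM columns were not used. Aligner and strand setting: not given in the sources used here. Hence reads of overlapping genes (21 of the 47 overlap another RefSeq gene) cannot be told apart.

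After rounding, the expected counts went into edgeR 4.0.16 (R 4.3.3): filterByExpr by group (minimum count 10), TMM scaling, the two-sided quasi-likelihood test of KO against WT over all genes without covariates, Benjamini-Hochberg adjustment, threshold 0.05. Standard errors come from the test statistic. The fit was tested on simulated counts, with a pass required only where both groups had the same spread, unlike the groups here. Alternatives were scaling by total count or by DESeq2's size factors, the test of DESeq2 1.42.0, limma-voom (limma 3.58.1) with 1 or a separate spread per group, no and a stricter count filter (a group mean of 10 and an overall mean of 50), leaving out each library, a block for the replicate number, and limma on log2(TPM + 0.1) and log2(TPM + 1) of genes averaging at least 1 TPM, the second also unfiltered. A lone KO library was taken to vary as WT libraries do. No library was a copy of another (chi-square over degrees of freedom 3.41 to 6.35 for WT pairs and 107 for the KO pair). The members and lists were chosen with earlier results of these data known. One gene of the TGF-beta target list is not reported here and was left out of its counts, median and plot. All members are accounted for, and of each related list the up to 4 genes with the smallest p are named. Coordinates are those of the deposited table. Promoters come from RefSeq on the same build and were absent from the table used for Bambi, Bmp1, Bmp2, Bmp7, Fst, Id1, Nog, Pmepa1, Skil, Smad2, Smad4, Smad7, Tgfb3 and Tgfbr3.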

Additional observations from a re-analysis of the deposited data

How the results depend on the processing

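The counts of calls depended on how the unequal spread of the groups was treated. With a separate spread per group 1625 of all tested genes were higher (12.5%) and 1567 lower (12.1%), with 6 (13.6%) and 2 (4.55%) of the pathway genes. With the replicate number as a block 804 and 794 of all genes passed as higher and lower (6.21 and 6.13%). Of the pathway genes 2 were higher (Inhbb and Fstl1, 4.55%) and 1 lower (Fst, 2.27%). The labels give the shared numbers no pairing, and libraries of the same number did not deviate together (correlation 0.00714 for KO1 with WT1 and 0.0676 for KO2 with WT2). Leaving out 1 library gave 980 to 3975 genes higher and 977 to 4093 lower over all genes, and 3 to 15 and 2 to 14 among the pathway genes. Of the pathway genes 6 were higher with the stricter count filter, which left 33 to be tested (18.2%, beside 22% of all tested genes). On log2(TPM + 1) 6 and 5 were higher with and without a filter (14.6 and 10.6%, beside 18.1 and 12.1%). On log2(TPM + 0.1) 6 were higher (14.6%, beside 18.1%), where the cause was not tested. Inhbb and Fst passed in every alternative. So did Fstl1 where it had a value, but its count filter allowed a rise only.

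Of 686 values of single pathway genes under the alternatives, 542 kept direction and side of the threshold, 82 lost the call, 32 gained one and 30 changed sign. All sign changes were in genes that had not passed. Bmp6 gave -0.83 with limma-voom, -0.83 with a separate spread, -0.38 with the block, -0.015 on log2(TPM + 1) with or without a filter and -0.64 on log2(TPM + 0.1). Gdf11 gave -0.005, -0.006 and -0.006 with limma-voom, a separate spread and log2(TPM + 0.1). Smad4 gave -0.006 with no count filter, -0.024 on log2(TPM + 1) with or without a filter and -0.025 on log2(TPM + 0.1). With 1 library left out, the ranges of the log2 changes that crossed 0 were -3.43 to 1.63 (Bmp6), -0.16 to 0.57 (Bmp7), -0.44 to 2.71 (Gdf15), -0.84 to 0.82 (Gdf11), -0.13 to 0.33 (Eng), -0.084 to 0.39 (Acvr2a), -0.23 to 0.47 (Bmpr1b), -0.042 to 0.13 (Bmpr2), -0.09 to 0.099 (Smad4), -0.058 to 0.28 (Ski), -0.48 to 0.009 (Skil), -0.81 to 0.14 (Pmepa1), -0.30 to 0.34 (Bambi) and -0.73 to 0.21 (Id2). With 2 KO libraries that differed this much, small changes were not detectable in genes that vary between them, and fewer than 10 counts in every library kept Smad6, Smad9 and Grem1 out of the test.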
